A study of Mus musculus with 4 samples.

Results

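A set of 10 genes of fatty acid, lipoprotein and retinol handling were followed in endothelial cells of mouse spleen that carried or lacked the chemokine-scavenging receptor ACKR4. They were Gpihbp1, Lpl, Cd36, Scarb1 and Vldlr, which act at the cell surface or in the vessel lumen, Fabp4, Fabp5 and Rbp7, which encode small carriers in the cytosol, and the transcription factor genes Meox2 and Pparg. The members were taken by gene name from the array, which gave 10 genes with 13 of its 39429 probes, and all 10 were among the 17362 genes tested. All mice were Ackr4GFP/wt, with green fluorescent protein placed at 1 copy of the Ackr4 locus, so both groups carry the reporter. The ACKR4-positive group held living CD45-negative, CD31-positive spleen cells with reporter fluorescence, and the ACKR4-negative group held such cells without it. Each of 2 sorts pooled 2 to 3 mice and gave 1 array per group, so there were 2 arrays in each group, replicates 1 and 2. No age, sex or treatment is given in the labels for either group.

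In tissues that burn fat, capillary endothelium brings lipid from blood to the cells behind it. Lipoprotein lipase is made by parenchymal cells and held on the luminal face of capillaries by GPIHBP1, where it frees fatty acids from triglyceride-rich lipoproteins. CD36 takes these up, fatty acid-binding proteins carry them through the cytosol, and PPARG and the MEOX2-TCF15 pair are transcription factors known to raise such genes in endothelium. RBP7 is a cytosolic retinol-binding protein of capillary endothelium and shares its fold with the fatty acid-binding proteins.

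The sequence before the transcription start is shown for the members with a promoter entry in RefSeq (build GRCm38). Entries matched 5 of the 10 members, Rbp7, Cd36, Meox2, Pparg and Vldlr, with 8 windows of 250 bases that end just before a transcription start. Those shown are 5 of them, 5′ to 3′ on the strand of the gene, with capitals for any match on either strand to 1 of 5 letter strings. These were AGGTCA (core of nuclear receptor sites, PPARG among them), TAATTA (homeodomain core), TGGGAA (core of the Notch factor RBPJ), ACAAT (SOX core) and TATAAA (the box bound by TBP). The searched strings do not overlap each other in these windows. For Pparg the window of start 3 is printed, the only one of this gene with TGGGAA, while those of starts 1 and 2 hold AGGTCA. For Vldlr the window of start 1 is printed, and that of start 2 holds none of the 5 strings. The printed windows therefore do not stand for all 8.
Rbp7 chr4:149454969-149455218, minus strand: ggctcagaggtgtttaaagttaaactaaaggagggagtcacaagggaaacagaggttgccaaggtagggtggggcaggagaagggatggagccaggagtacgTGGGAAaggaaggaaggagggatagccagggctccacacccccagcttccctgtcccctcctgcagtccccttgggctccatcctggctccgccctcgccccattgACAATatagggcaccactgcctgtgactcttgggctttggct
Cd36 chr5:17835897-17836146, minus strand: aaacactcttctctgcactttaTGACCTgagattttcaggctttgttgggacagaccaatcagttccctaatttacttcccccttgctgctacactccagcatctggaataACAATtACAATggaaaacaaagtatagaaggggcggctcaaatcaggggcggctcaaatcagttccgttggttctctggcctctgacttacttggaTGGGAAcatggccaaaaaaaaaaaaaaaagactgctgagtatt
Meox2 chr12:37108290-37108539, plus strand: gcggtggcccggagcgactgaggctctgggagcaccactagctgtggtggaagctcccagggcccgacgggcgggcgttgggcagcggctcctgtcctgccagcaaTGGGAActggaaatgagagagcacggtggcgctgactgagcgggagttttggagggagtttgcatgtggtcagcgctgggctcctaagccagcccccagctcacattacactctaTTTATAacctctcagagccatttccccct
Pparg start 3 chr6:115421816-115422065, plus strand: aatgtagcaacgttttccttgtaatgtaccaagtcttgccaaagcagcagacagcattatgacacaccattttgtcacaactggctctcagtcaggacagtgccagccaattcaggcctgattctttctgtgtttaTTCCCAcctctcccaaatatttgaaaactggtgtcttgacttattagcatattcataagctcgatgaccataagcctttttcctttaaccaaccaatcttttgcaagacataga
Vldlr start 1 chr19:27216234-27216483, plus strand: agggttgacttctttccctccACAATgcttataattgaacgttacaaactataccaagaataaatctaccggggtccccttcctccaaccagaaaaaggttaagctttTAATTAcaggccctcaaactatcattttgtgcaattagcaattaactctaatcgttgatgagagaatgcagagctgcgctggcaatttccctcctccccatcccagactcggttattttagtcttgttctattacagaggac
TGGGAA stood in 4 of the 8 windows (50%) against 21.6% of all 32851 RefSeq windows of this length. It began 148, 43 and 144 bases before the start of Rbp7, Cd36 and Meox2 and, on the other strand, 114 bases before start 3 of Pparg. The windows of Pparg starts 1 and 2, which are not printed, and both windows of Vldlr held none. Which Pparg start is used in these cells was not tested. AGGTCA stood in 3 windows (37.5%, against 14% of all), those of Cd36 and of starts 1 and 2 of Pparg, and in neither the Rbp7 nor the Meox2 window. ACAAT stood in 3 windows (37.5%, against 27.7%), TATAAA in 2 (25%, against 12.4%) and TAATTA in 1, that of Vldlr start 1 (12.5%, against 4.84%). These matches describe letters only, windows of 1 gene are not independent, and binding was not measured.

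Among the 10 genes, 6 were lower in ACKR4-positive cells, 1 was higher and 3 did not pass the test. The 6 were Gpihbp1, Rbp7, Scarb1, Meox2, Cd36 and Pparg, and the gene that rose was Vldlr. Fabp4 and Lpl overlapped between the groups, and Fabp5 was higher on both ACKR4-positive arrays without passing. Over all tested genes 3.71% were called lower and 1.91% higher, 5.62% in all. Their median log2 fold change was 0.04, against -1.98 for the 10 members. The members were chosen with earlier results of these data known, so these counts and medians describe them and are not a test. Arrays of the groups did not overlap for 6 members in the downward and 2 in the upward direction, as for 21.6% and 23.3% of all genes. Calls are from limma at an adjusted p under 0.05, with the Benjamini-Hochberg adjustment made over the 17362 genes. Rbp7, Meox2 and Vldlr entered the test only through the group in which they were brighter, so a difference was built into their entry. They are included in the counts and the median above. The same holds for the entry of any other gene below that was at background in 1 group. A level below is the mean log2 signal of a probe minus the array's 75th percentile, and a log2 fold change is ACKR4-positive minus ACKR4-negative ± SE (n = 2 arrays per group). The titles give both groups of a sort the same mouse number, and with 2 sorts the p-values measure only the spread between these arrays. In sorted bulk RNA, fewer cells that express a gene and less RNA per cell cannot be told apart.

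**Figure D1:**
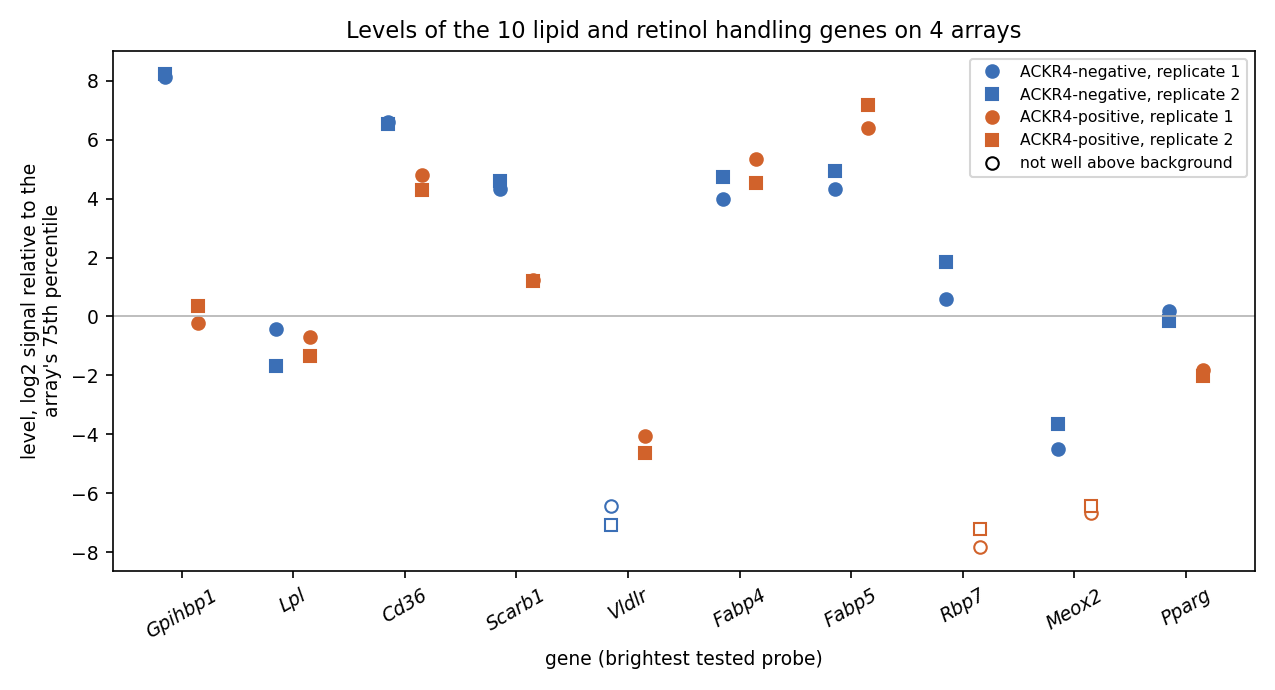
Level of each gene on each of the 4 arrays, as log2 signal relative to the array's 75th percentile (y axis), for the brightest tested probe of each gene (x axis). Blue and orange mark ACKR4-negative and ACKR4-positive arrays, circles and squares replicates 1 and 2, and open symbols a group in which the probe was not well above background. Heights are comparable between arrays within a gene, not between genes, and Gpihbp1 falls from about the 8.12 and 8.22 of the ACKR4-negative arrays to near 0.

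All 4 arrays lay on 1 slide and were scanned together, and 54.9% to 58.3% of probes were well above background. Spike-in probes were dimmer on 1 array, ACKR4-negative replicate 1, with a median signal of 837 where the rest had 2749 to 3489. Ackr4, which the sort selects, had levels of -7.53 and -7.50 on ACKR4-negative and -0.21 and 2.55 on ACKR4-positive arrays, as the labels say. All 14 pan-endothelial markers were well above background on all 4 arrays, and 3 of them, Esam, Kdr and Emcn, were called lower in ACKR4-positive cells. Esam was called under 12 of the 16 alternatives, Emcn under 11 and Kdr under 7. Esam and Kdr did not pass with any array left out (adjusted p = 0.0625 to 0.188), nor Emcn without either ACKR4-negative array (adjusted p = 0.112 and 0.0690). The summed signal of the 14 markers, in units of the 75th percentile, was 908 and 899.5 on ACKR4-negative and 687 and 810.0 on ACKR4-positive arrays. Megakaryocyte and platelet markers were called lower in 10 of 14 members, and their summed signal was 113 and 253 against 5.08 and 7.19. Mural markers were called lower in 4 of the 10 tested of 11, with sums of 60.5 and 102.5 against 3.00 and 3.41. Of 12 macrophage markers 11 were tested and 0 called, and 3, Marco, C1qa and C1qc, were called lower with the replicate block. The tested macrophage markers had a median of -0.27, with 6 lower and 1 higher in both replicates. Their summed signal was 39.6 and 39.9 on ACKR4-negative and 46.1 and 50.7 on ACKR4-positive arrays, most of it from Vcam1, the 1 higher in both replicates, which endothelium also expresses.

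Of the members at the luminal surface, Gpihbp1, the capillary anchor of lipoprotein lipase, had levels of 8.12 and 8.22 on ACKR4-negative and of -0.22 and 0.34 on ACKR4-positive arrays. The 2 groups were separated by 7.79 on the log2 scale between their nearest arrays, while arrays within a group differed by 0.09 and 0.56. Its log2 fold change was -8.11 ± 0.32 (adjusted p = 0.00638, limma), a 277-fold lower signal, rank 18 from the lowest value of all tested genes. The probe, on chromosome 15 at 75428484 to 75428543 (mm9), was still well above background in ACKR4-positive cells, so this fold is measured and not a bound.

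Lpl, which encodes the lipase that GPIHBP1 holds, had levels of -0.41 and -1.69 on ACKR4-negative and of -0.69 and -1.33 on ACKR4-positive arrays. Both ACKR4-positive arrays lay between the 2 ACKR4-negative ones, which were 1.28 apart. It gave a log2 fold change of 0.05 ± 0.54 (adjusted p = 0.986), and a second probe, toward the 5′ end of the gene, read -0.09 ± 0.74. On the same arrays the fold changes of the lipase gene and of its anchor's gene were thus 0.05 and -8.11. The difference between the genes was not tested.

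Cd36, the fatty acid translocase and a class B scavenger receptor, had levels of 6.61 and 6.53 on ACKR4-negative and of 4.80 and 4.29 on ACKR4-positive arrays. Both ACKR4-positive arrays lay below both others, by 1.73 at the nearest. The log2 fold change was -2.03 ± 0.31 (adjusted p = 0.0395), a 4.08-fold lower signal. Whichever array was left out, Cd36 no longer passed (adjusted p = 0.0706 to 0.195, values -2.28 to -1.77), nor did it with quantile normalization (-1.83, adjusted p = 0.130) or with a looser or stricter filter on dim probes (adjusted p = 0.0545 and 0.0503). Platelets and macrophages also make CD36. The platelet marker sum moved with Cd36, as given above, and the part of platelet RNA in this value was not tested.

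Scarb1 encodes SR-BI, the receptor for high-density lipoprotein and a relative of CD36. Its levels were 4.31 and 4.59 on ACKR4-negative and 1.22 and 1.19 on ACKR4-positive arrays. The ACKR4-positive arrays agreed within 0.03 and lay 3.09 below the nearest ACKR4-negative array. The fitted difference was -3.25 ± 0.28 (adjusted p = 0.0125), a 9.49-fold lower signal, and a second probe of the gene gave -2.94 ± 0.45 (adjusted p = 0.0366 with probes fitted singly). Without ACKR4-negative replicate 2 the value was -3.11 and the adjusted p 0.0519.

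Vldlr, the receptor for very low density lipoprotein, was the 1 member called higher. Its levels were -6.44 and -7.09 on ACKR4-negative arrays, where it was not well above background, and -4.07 and -4.62 on ACKR4-positive arrays. The log2 fold change was 2.42 ± 0.38 (adjusted p = 0.0423), which the background limits to at least 2.35-fold. Such a bound sets each dimmer array at the faintest level that still counted as well above background there, -6.03 to -5.31 on the 4 arrays. The signal was dim even where it was higher, and a second probe, which was not tested, read -7.24 and -7.03 against -6.31 and -6.53. With normexp background correction the value was 0.46 (adjusted p = 0.554). That correction added an offset of 50, near or above the probe's signals of 4.8 to 57, which draws a difference toward 0. The same limit applies to dim Meox2 below. Leaving out any array also ended the call of Vldlr. It was also lost with quantile normalization, with no filter and with a trended prior (adjusted p = 0.0502 to 0.0620).

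**Figure D2:**
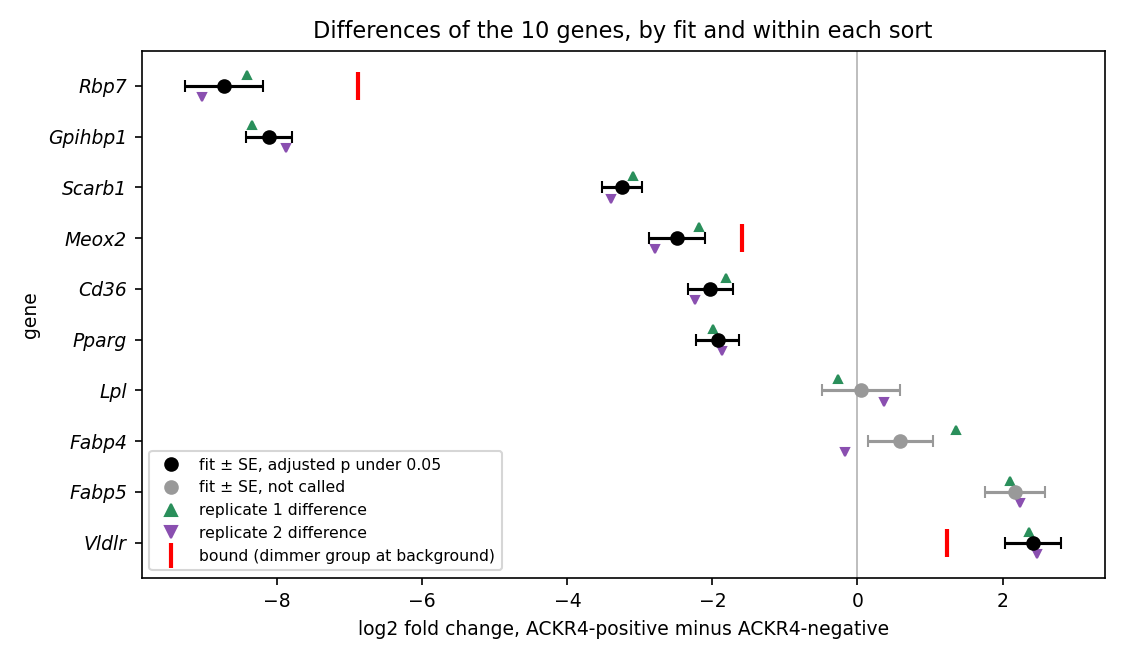
Log2 fold change of each gene (x axis), ACKR4-positive minus ACKR4-negative, with the fitted value and its SE as circle and bar, the differences within replicate 1 and replicate 2 as triangles, and red ticks for bounds where the dimmer group was at background. Rbp7 and Gpihbp1 stand at -8.73 and -8.11, apart from the other 4 lower genes at -3.25 to -1.93, while the triangles of Lpl and Fabp4 fall on both sides of 0.

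Of the 3 cytosolic carriers, 1 passed the test, Rbp7. Fabp4 encodes the fatty acid-binding protein of adipocytes and capillary endothelium, and its levels were 3.97 and 4.72 on ACKR4-negative and 5.33 and 4.54 on ACKR4-positive arrays. The highest and the second lowest array were both ACKR4-positive, and the difference was 1.36 in replicate 1 and -0.18 in replicate 2. The log2 fold change of 0.59 ± 0.44 did not pass (adjusted p = 0.669).

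Fabp5, a related fatty acid-binding protein gene known from skin and macrophages as well as endothelium, had levels of 4.31 and 4.92 on ACKR4-negative and of 6.41 and 7.16 on ACKR4-positive arrays. All ACKR4-positive values lay above the ACKR4-negative ones, with differences of 2.10 and 2.24 within the replicates. Fabp5 had a log2 fold change of 2.17 ± 0.41 with an adjusted p of 0.0659, and passed once the replicate number entered as a block (adjusted p = 0.00320, in a fit that called 15.3% of all genes). It was also called with normexp (2.14, adjusted p = 0.0436) and with quantile normalization (2.38, adjusted p = 0.0197). RefSeq lists a pseudogene copy of Fabp5, and whether the probe reads it was not tested.

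Rbp7 had levels of 0.58 and 1.84 on ACKR4-negative arrays and of -7.84 and -7.20 on ACKR4-positive arrays, where its probe was not well above background. The fitted difference for Rbp7 was -8.73 ± 0.54 (adjusted p = 0.00776), and the bound was at least 118-fold lower. Both replicates showed it, at -8.42 and -9.04. The ACKR4-negative arrays were 1.26 apart, so the bound moves with either of them, and the fitted difference ran from -9.36 to -8.10 with 1 array left out. With normexp, which lifts the low end, the value was -4.80, still called. The TGGGAA of its window printed above lies 148 bases before the start.

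Of the 2 transcription factor genes, Meox2, a homeobox gene of capillary endothelium and vascular muscle, had levels of -4.49 and -3.66 on ACKR4-negative and of -6.67 and -6.45 on ACKR4-positive arrays. It was not well above background on either ACKR4-positive array. The fitted difference for Meox2 was -2.48 ± 0.39 (adjusted p = 0.0400), with a bound of at least 3.02-fold lower. It did not pass with any array left out (adjusted p = 0.0663 to 0.146) or with normexp (-0.65, adjusted p = 0.508). Mural markers fell with it, as given above, and the part of mural RNA in this value was not tested.

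Pparg encodes the nuclear receptor that drives fat storage in adipocytes and lipid uptake in endothelium. Its levels were 0.19 and -0.14 on ACKR4-negative and -1.80 and -2.01 on ACKR4-positive arrays. The 2 groups lay 1.66 apart at the nearest arrays, with gaps of 0.33 and 0.21 inside them. The log2 fold change was -1.93 ± 0.29 (adjusted p = 0.0379), a 3.81-fold lower signal. With any array left out Pparg did not pass (adjusted p = 0.103 to 0.223, values -2.10 to -1.76), nor with no filter on dim probes (adjusted p = 0.0549).

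Adipocytes make Lpl, Cd36, Fabp4 and Pparg too. Of 8 adipocyte markers, Adipoq, Plin1, Cidec and Lep were not well above background on any array, and Cfd was called lower. Cfd entered the test only through the ACKR4-negative group, so a difference was built into its entry. Of the other 3 tested, 0 were called in the fit without the block. Adrb3 stood at 1.76 ± 0.35 (adjusted p = 0.0728) and Fasn, which makes fatty acids in many cell types, at 1.58 ± 0.53 (adjusted p = 0.247), and both were called higher with the replicate block (adjusted p = 0.0153 and 0.0383). The tested genes of the list had a median of 1.30. Retn, the last of them, had levels of -1.43 and -1.47 on ACKR4-negative and of 1.62 and -2.46 on ACKR4-positive arrays. The summed signal of the list was 0.660 and 0.630 on ACKR4-negative and 3.45 and 0.534 on ACKR4-positive arrays.

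**Figure D3:**
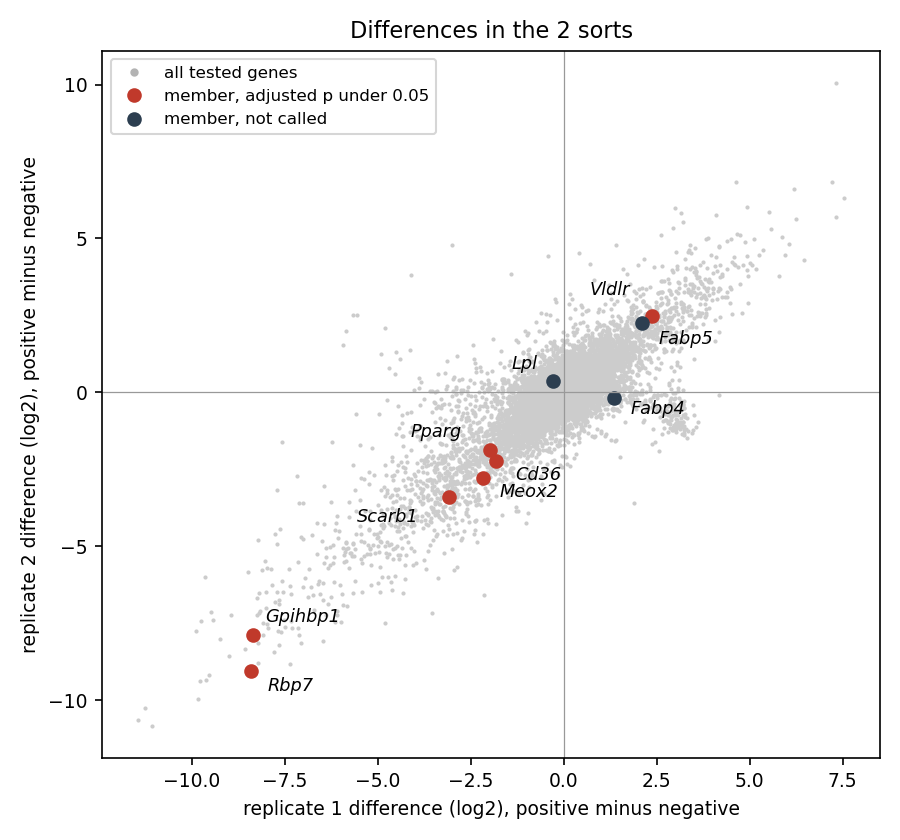
Difference between ACKR4-positive and ACKR4-negative arrays on the log2 scale in replicate 1 (x axis) and replicate 2 (y axis) for all tested genes (grey) and the 10 members (red where called, dark where not). The 6 lower members lie in the lower left, with Gpihbp1 at -8.35 and -7.88 and Rbp7 at -8.42 and -9.04, and Vldlr and Fabp5 in the upper right.

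Other genes of these pathways were counted in 6 lists with 123 genes, 90 of them tested. Of these, 4 were lower and 2 higher, 6 in all, and their median log2 fold change was 0.07. Among all tested genes 3.71% were called lower and 1.91% higher, 5.62% in all. The count of calls in each list below stands beside these shares. With the replicate block 26 of the 90 were called, 11 lower and 15 higher, where 8.55% of all genes were lower and 6.75% higher. The 6 lists and their members were chosen with earlier results of these arrays known.

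Of the 31 retinoid genes 18 were tested, and 16 of them were not called, with a median of 0.27. Aldh1a3, an enzyme that makes retinoic acid from retinal, rose by 3.12 ± 0.42 (adjusted p = 0.0288), from levels of -4.39 and -3.54 to -0.58 and -1.10. Without the replicate 1 array of either group Aldh1a3 did not pass (adjusted p = 0.0930 for the ACKR4-negative and 0.0848 for the ACKR4-positive array). Adh1, an alcohol dehydrogenase that oxidises retinol, stood at 3.50 ± 0.61 (adjusted p = 0.0530, and 0.000936 with the replicate block), and Aldh1a1, another retinal dehydrogenase, at 1.64 ± 0.33 (adjusted p = 0.0789, and 0.0114 with the block). Rdh10, which oxidises retinol to retinal, stood at 0.82 ± 0.31 (adjusted p = 0.317).

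Of the lipolysis genes, 1 of 9 tested was called, with a median of -0.03. Apoe, an apolipoprotein that lipoprotein receptors bind, fell by 2.23 ± 0.27 (adjusted p = 0.0221), from levels of 4.31 and 4.42 to 2.04 and 2.22. Angptl4, an inhibitor of lipoprotein lipase and a target of PPARs, had levels of 2.10 and 2.73 on ACKR4-negative and of 3.86 and 5.16 on ACKR4-positive arrays. Its log2 fold change of 2.09 ± 0.54 did not pass (adjusted p = 0.143), while the block gave 0.00647, past the threshold. Pltp, the phospholipid transfer protein gene, stood at 1.56 ± 0.34 and Mttp, which loads lipid onto apolipoprotein B, at -1.10 ± 0.26 (adjusted p = 0.0963 and 0.116, and 0.0177 and 0.0278 with the block).

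Lipoprotein receptor and cholesterol export genes gave 1 call among 10 tested, with a median of -0.34. Lsr, the lipolysis-stimulated lipoprotein receptor, which is also a protein of tricellular junctions, fell by 2.27 ± 0.31 (adjusted p = 0.0286), from levels of 1.07 and 0.77 to -1.55 and -1.16. Abcg1, a cholesterol exporter, stood at -1.12 ± 0.28 and Lrp1, a large endocytic receptor, at -1.46 ± 0.41. Neither passed (adjusted p = 0.133 and 0.170), and both were called with the replicate block (adjusted p = 0.0305 and 0.0326).

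Fatty acid uptake and binding genes gave 1 call among 16 tested, with a median of 0.32. Slc27a2, a fatty acid transport protein and acyl-CoA synthetase best known from liver and kidney, fell by 4.48 ± 0.28 (adjusted p = 0.00794), with a bound of at least 7.78-fold, since it was not well above background in ACKR4-positive cells. Slc27a2 entered the test only through the ACKR4-negative group, so a difference was built into its entry. With normexp its value was -1.46 (adjusted p = 0.0671). Fabp2, the intestinal fatty acid-binding protein gene, stood at 1.67 ± 0.32 and Acsl1, an acyl-CoA synthetase, at -1.29 ± 0.27 (adjusted p = 0.0650 and 0.0847), both called with the block (adjusted p = 0.0113 and 0.0197). Fabp7, the brain-type member, stood at -2.76 ± 0.71 (adjusted p = 0.139, and 0.00726 with the block). It was not well above background in ACKR4-positive cells, so that the bound is at least 3.33-fold lower. Like Slc27a2, it entered the test only through the ACKR4-negative group.

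Fatty acid storage and oxidation genes gave 0 calls among 21 tested with limma, and 2 with the replicate block. The median of the list was -0.08. At an unadjusted p under 0.05 there were 2 of the 21, and the share of all genes at that threshold is not reported here. The members with the smallest p were Mgll, a monoglyceride lipase, at 1.22 ± 0.34, Cpt1a, which admits fatty acids to mitochondria, at 1.24 ± 0.36, and Pnpla2, the adipose triglyceride lipase, at -0.68 ± 0.27 (adjusted p = 0.166 to 0.335). The block called Mgll and Cpt1a (adjusted p = 0.0202 and 0.0239).

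Transcription factors and cofactors of lipid genes gave 1 call among 16 tested, with a median of 0.18. Meox1, the paralog of Meox2, rose by 2.84 ± 0.36 (adjusted p = 0.0244), from levels of -0.79 and -0.18 to 2.13 and 2.56, while Meox2 fell. Tcf15, the partner of MEOX2, had levels of -2.57 and 0.28 on ACKR4-negative arrays and of -6.11 and -6.88 on ACKR4-positive arrays, where it was not well above background. Its log2 fold change of -5.35 ± 1.01 did not pass (adjusted p = 0.0655), while the fit with the block called it (adjusted p = 0.0143). Its 2 ACKR4-negative arrays lay far apart, and its value was -6.78 without replicate 1 and -3.93 without replicate 2 of that group. These fits take their spread from the ACKR4-positive pair, which was at background. They therefore cannot show whether the difference is stable. Tcf15 entered the test only through the ACKR4-negative group, so a difference was built into its entry. With normexp it stood at -2.59 (adjusted p = 0.193). Srebf1, which drives fatty acid synthesis genes, stood at -1.31 ± 0.27 and Cebpa, a partner of PPARG in fat cells, at 1.29 ± 0.30 (adjusted p = 0.0789 and 0.109, and 0.0166 and 0.0294 with the block). Ppara and Ppard, the other PPAR genes, were named after their values were seen and stood at 0.60 ± 0.35 and -0.74 ± 0.39 (adjusted p = 0.546 and 0.496). Apoe, Lsr and Meox1 each failed the test with any array left out (adjusted p = 0.0520 to 0.153), with values of -2.33 to -2.14, -2.47 to -2.08 and 2.53 to 3.14.

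**Figure D4:**
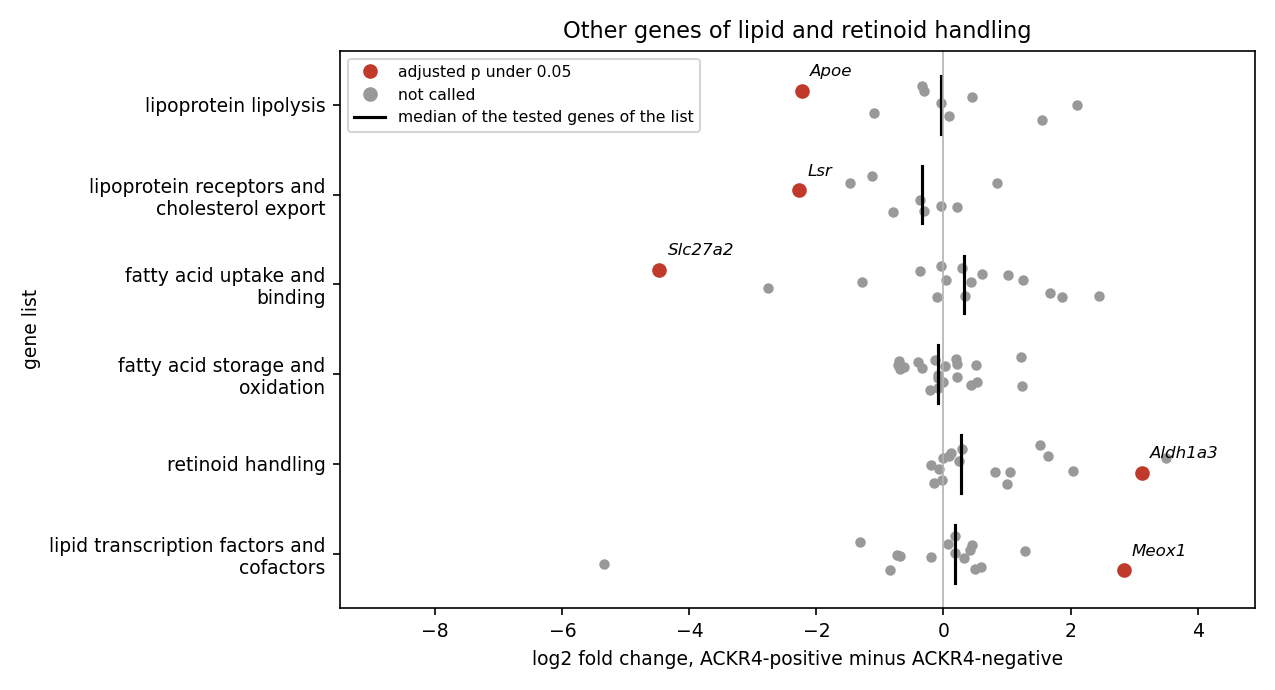
Log2 fold change (x axis), ACKR4-positive minus ACKR4-negative, of all but 2 of the tested genes in 6 lists of lipid and retinoid handling (y axis), with called genes in red and named, other genes in grey, and a bar at the median of each list. Medians lie between -0.34 and 0.32, and Slc27a2 at -4.48 lies farthest to the left among the called genes drawn.

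Genes with the profile most like 3 of the members were taken by the smallest Euclidean distance over the 4 arrays after each gene's own mean was subtracted. With 4 arrays this is a description. For Gpihbp1 they were Itga2b, a platelet integrin gene, Lrrc3b, Slc26a10 and Ednrb, the endothelin receptor B gene, at distances of 0.225 to 0.55. For Cd36 they were Cd7, Fbln5, Zfp703 and Itgb5, at distances of 0.126 to 0.142. For Fabp4, whose arrays did not split by group, they were Ttc26, Rad54l2, Fscn3 and Lca5, at distances of 0.0362 to 0.221. Itga2b fell from levels of 1.30 and 1.69 to -6.92 and -6.45 and was at background in ACKR4-positive cells, unlike Gpihbp1.

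**Figure D5:**
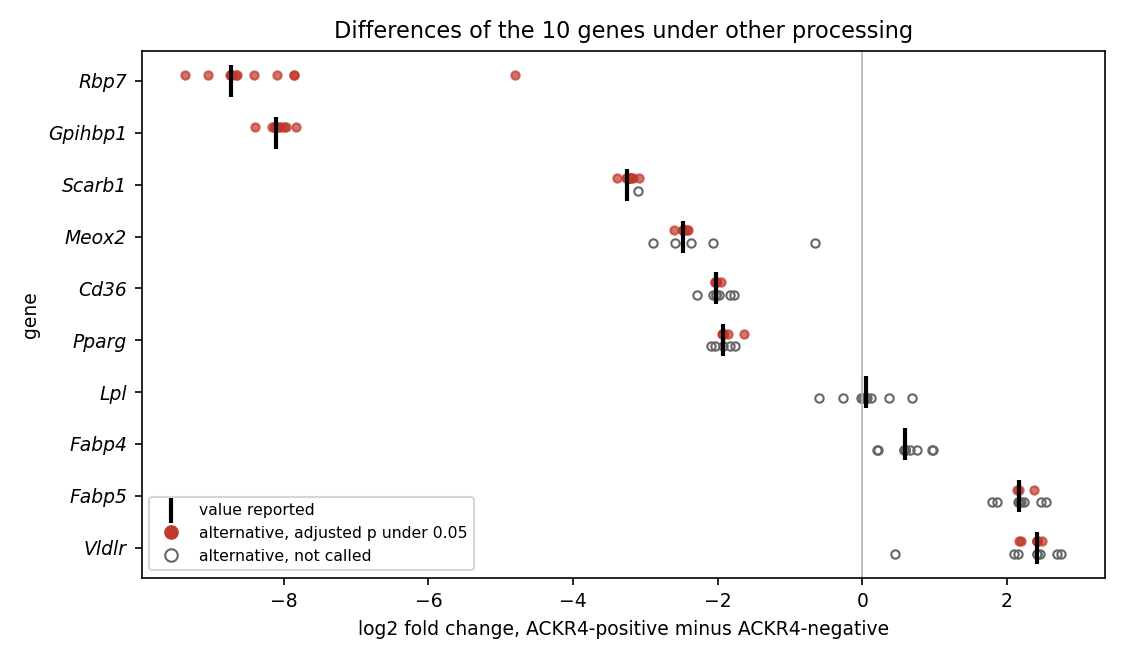
Log2 fold change (x axis) of each gene under each of up to 16 other ways of processing the arrays, with the reported value as a black tick, called values in red and values that were not called as open circles. Gpihbp1, at -8.40 to -7.83, and Rbp7, at -9.36 to -4.80, are called under every alternative run, Lpl lies on both sides of 0, and no other gene changes side.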

How the data were processed

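Spleen endothelial cells were profiled on 4 one-colour Agilent arrays. The deposited spot intensities are processed, detrended signals that the authors' scanner software made (Agilent Feature Extraction, version 10.7.3.1 by the submitters' processing notes). Unflagged spots of a probe were averaged on the log2 scale and each array's 75th percentile was subtracted. A gene was tested if a probe was well above background on both arrays of a group, and its brightest such probe stood for it. Groups were compared with limma 3.58.1 in R 4.3.3 (lmFit, eBayes), without the replicate block, with Benjamini-Hochberg adjustment and a threshold of 0.05. The script was tested on simulated data with 50 changes of each size, 200 changed genes among 17362. The noise was drawn independently for each array, so the simulated replicates were not paired. The fit recovered 0 at 2-fold, 0 at 4-fold, 23 at 16-fold and 32 at 64-fold, with 0 false calls. The fit of the real arrays called 976 genes, more than were changed in the simulation, and its arrays are paired. The recovered counts are therefore not rates for the real fit, which called some genes at about 4-fold. A gene that was not called may still differ by several fold.

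Both groups carry the same mouse numbers in their titles, read here as the sort, so the replicate numbers pair the samples, and arrays of the same number deviated together from their group means (r = 0.605 across genes). Intervals from 4 arrays are limited by their number. Alternatives were background correction, normalization, the filter on dim probes, probe choice, the deposited value table, the prior, the block and leaving out each array. Members and lists were chosen with earlier results of these data known. Genes named are the members, the called genes of each list with up to 3 further genes of smallest p, and 4 genes nearest in profile to each of 3 members. Protein sequences were not used here, and some genes of the lists are not reported here.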

Additional observations from a re-analysis of the deposited data

How the results depend on the processing

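Of the 16 alternatives, Gpihbp1 kept its call in all 16 and Rbp7 in the 15 that tested it. With no filter on dim probes 4 members were called. The stricter filter, which tested 7 members and left out Vldlr, Rbp7 and Meox2, called 3 members and 441 genes. With the replicate block 2656 genes, 8 members and 26 pathway genes were called, against 976, 7 and 6 without it. The block changed the call of no member other than Fabp5. With 1 array left out, 387 to 892 genes, 2 to 3 members and 2 to 6 pathway genes were called. The fewest genes were called without ACKR4-negative replicate 1, and 2 members, Gpihbp1 and Rbp7, were called without ACKR4-negative replicate 2. In these fits the lone array is assumed to vary like the pair of the other group. Lpl, never called, took the other sign with the mean of its probes (-0.02272), without ACKR4-negative replicate 2 and without ACKR4-positive replicate 1. Its range with 1 array left out was -0.59 to 0.69. Apart from fewer arrays or genes tested, the cause of these changes was not tested. Dim signal limits Vldlr, Meox2 and Rbp7, each at background in 1 group.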
